A study of Mus musculus with 6 samples.

Results

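The 39 Hox genes of the mouse were examined in the RNA-seq of WT and Oct6 KO EpiLCs, chosen by name as the protein-coding genes of the Hoxa, Hoxb, Hoxc and Hoxd clusters among the 55416 genes of the count table. All 39 were found, and the values below are those of 38 of them, 10 in the Hoxa cluster, 10 in Hoxb, 9 in Hoxc and 9 in Hoxd. Of these 38, 25 had a count in at least 1 library, and 13 had none in any library. EpiLCs are formative pluripotent cells, obtained here from 46C mESCs kept in N2B27 with 2i+LIF and then cultured for 48 h in N2B27 with KSR, bFGF and Activin A on fibronectin. The 46C line, shared by both genotypes, carries GFP under the control of the neural gene Sox1. The WT group is the parental line and the KO group a single clone derived from it by CRISPR/Cas9, homozygous for an inserted base in Oct6 (Pou3f1), so that genotype and clone cannot be told apart. Total RNA of 3 replicates of each genotype was sequenced after removal of ribosomal RNA, and the labels number the replicates 1 to 3 in both groups.

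Hox genes encode homeodomain transcription factors that give cells of the embryo their position along the body axis. They lie in 4 clusters, and genes of the same number in different clusters, the paralog groups, descend from a common ancestor gene. Genes at the low-numbered end of a cluster are switched on first and furthest forward, in response to retinoic acid, Wnt and FGF signals, and those at the high-numbered end later and further back. In pluripotent cells the clusters are held silent, with Polycomb proteins on their chromatin, and they are opened by trithorax proteins as the axis forms.

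The libraries held between 10995505 and 14680930 counts, and a single count was worth between 0.0675 and 0.0911 CPM, counts per 1000000 of the library total scaled by its TMM factor. Oct6 itself, whose inserted base a gene count cannot show, stood at 2156, 1563 and 1805 counts in the WT libraries and at 1567, 1825 and 1708 in the KO libraries, which overlap. The EpiLC markers Pou5f1, Otx2, Fgf5, Dnmt3a, Dnmt3b and Pou3f1 were present in every library, with a summed level of 2990 to 3370 CPM in WT and 2950 to 3190 CPM in KO EpiLCs, and Otx2 and Fgf5 were called higher in KO EpiLCs. Of the 15746 genes tested with edgeR's quasi-likelihood method, 12.5% were called lower and 11.8% higher in KO EpiLCs at a Benjamini-Hochberg adjusted p below 0.1, the threshold used throughout.

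Promoter sequences are shown for 3 genes that the results turn on, Hoxa5 and Hoxa7, which had fewer counts in KO EpiLCs, and Hoxd1, which had more. Each is the 250 bases before the start site given by RefSeq, 5′ to 3′ on the strand of the gene, with coordinates on GRCm39 from an exact match, and capitals mark CG dinucleotides. The Hoxa5 promoter is chr6:52181568-52181817 (minus strand), that of Hoxa7 chr6:52195554-52195803 (minus strand) and that of Hoxd1 chr2:74593074-74593323 (plus strand).
Hoxa5: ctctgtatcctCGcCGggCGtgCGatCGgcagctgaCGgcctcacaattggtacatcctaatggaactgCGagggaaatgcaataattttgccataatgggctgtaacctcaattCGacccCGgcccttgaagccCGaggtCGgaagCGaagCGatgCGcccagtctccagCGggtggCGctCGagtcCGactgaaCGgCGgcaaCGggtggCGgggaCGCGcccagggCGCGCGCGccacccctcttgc
Hoxa7: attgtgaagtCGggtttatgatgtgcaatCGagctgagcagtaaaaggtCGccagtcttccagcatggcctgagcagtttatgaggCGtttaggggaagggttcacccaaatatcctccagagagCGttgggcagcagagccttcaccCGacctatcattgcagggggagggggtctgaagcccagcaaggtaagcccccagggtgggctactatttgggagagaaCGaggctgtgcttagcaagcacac
Hoxd1: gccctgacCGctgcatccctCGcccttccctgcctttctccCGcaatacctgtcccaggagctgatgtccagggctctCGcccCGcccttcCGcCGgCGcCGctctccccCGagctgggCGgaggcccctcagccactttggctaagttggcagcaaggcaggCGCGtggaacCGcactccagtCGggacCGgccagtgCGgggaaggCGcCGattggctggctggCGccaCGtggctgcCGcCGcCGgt
The RefSeq promoter table, made on GRCm38.p6, matched 22 of the 38 Hox genes with 24 start sites. Hoxa5 had 28 CG dinucleotides in its window, Hoxd1 24 and Hoxa7 7, against a median of 12.5 over the 24 Hox windows and of 6 over all 32851 promoters. The octamer ATGCAAAT, the motif of the POU family to which OCT6 belongs, was searched on both strands and was found in none of the 24 Hox windows and in 1.6% of all promoters. The motif TGATNNAT, bound by Hox proteins together with Pbx, was found on either strand in 4 of the 24 windows, those of Hoxa2, Hoxb1, Hoxb8 and 1 of the start sites of Hoxd11, and in 7.68% of all promoters. The RefSeq start of Hoxa7 lies inside the GENCODE gene, downstream of its outermost start. The Hoxd1 window also holds the first 220 bases of the antisense RNA gene Haglr, which is transcribed away from Hoxd1 and whose annotated start lies 30 bases from that of Hoxd1.

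Most Hox genes had few counts or none in EpiLCs of both genotypes. Of the 38 genes, 15 reached 3 counts in a library, 5 reached 10, and 3 had a count in every library, namely Hoxb9, Hoxc13 and Hoxd13. With at least 1 count as the criterion, 20, 11 and 17 genes were detected in WT replicates 1 to 3 and 9, 12 and 12 in KO replicates 1 to 3. The 13 genes without a count were Hoxb2, Hoxb3, Hoxb5, Hoxb8, Hoxc8, Hoxc9, Hoxc10, Hoxc11, Hoxc12, Hoxd3, Hoxd4, Hoxd10 and Hoxd12. A count of 0 in all 6 libraries allows up to 3 counts, or 0.0385 CPM, and such limits cover counting error only. Hoxd3 and Hoxd4 share exons on the same strand, 1542 of the 2967 exon bases of Hoxd4 being shared with Hoxd3 or another gene, and reads there could have been left out in counting. Among protein-coding genes in general, 18.3% of 21627 were without a count.

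**Figure D1:**
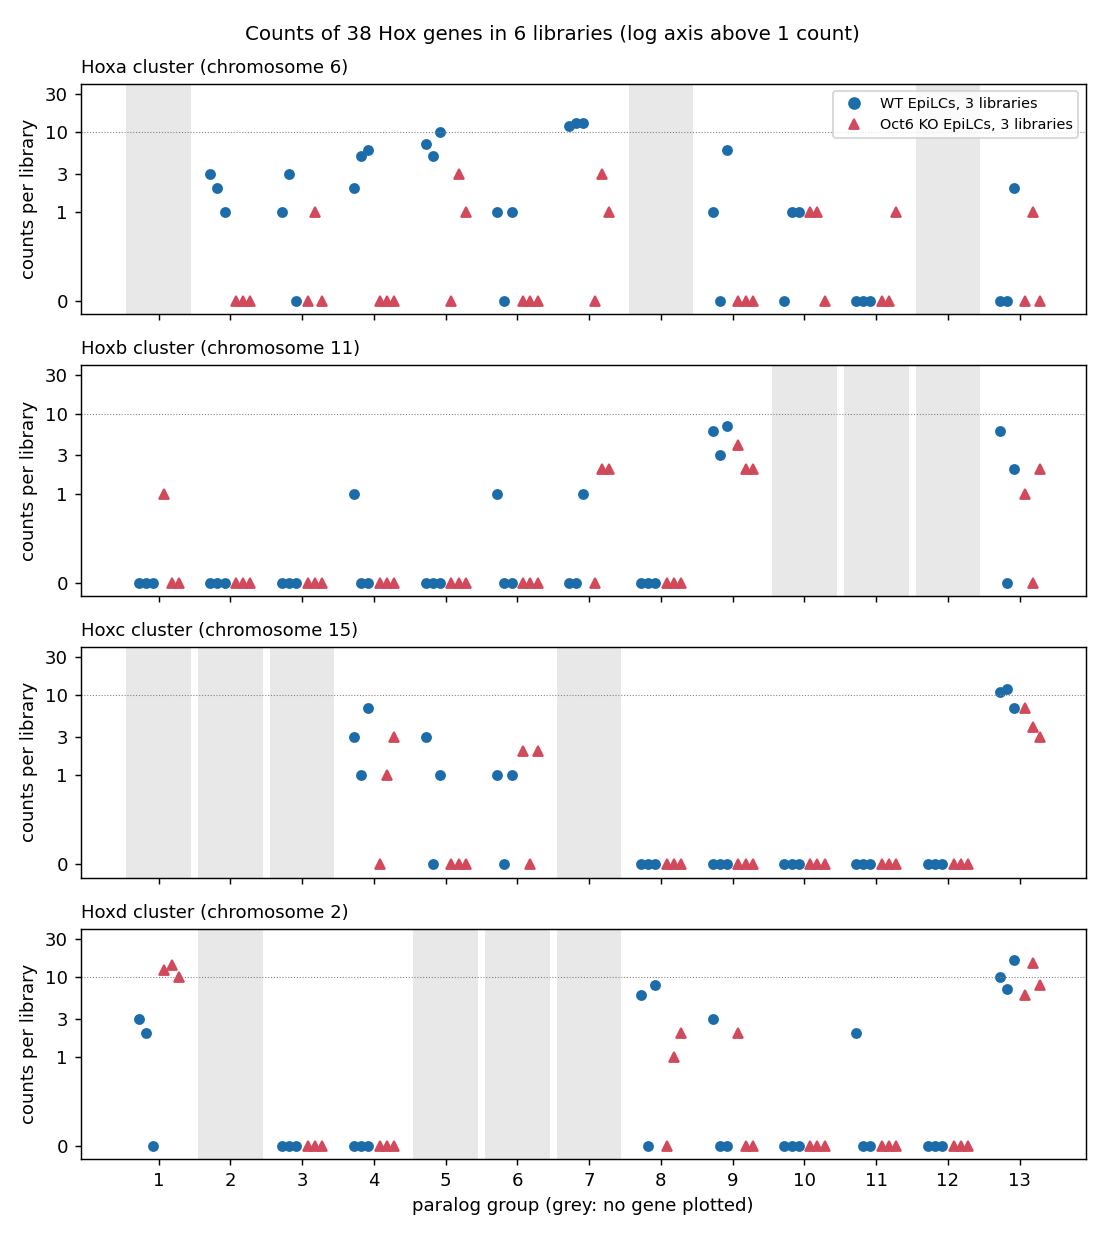
Counts of the 38 Hox genes described in each of the 3 WT libraries (circles) and 3 KO libraries (triangles), by cluster and paralog group, on an axis that is logarithmic above 1 count, with a dotted line at 10 counts. Hoxa4, Hoxa5 and Hoxa7 have more counts in the WT libraries, Hoxd1 is higher in the KO libraries, and most genes of Hoxb and Hoxc are at 0 or a few counts.

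The Hoxa cluster (chromosome 6 of GRCm39, with the 10 genes described between 52138599 and 52237822) had the largest summed level of the 4 in WT EpiLCs and was lower in every KO library. Its 10 genes together held 27, 29 and 40 counts in the 3 WT libraries, in the order of their replicate numbers, and 1, 9 and 3 in the 3 KO libraries. The summed level was 2.45 ± 0.382 CPM (SD, n = 3) in WT EpiLCs against 0.333 ± 0.32 CPM in KO EpiLCs, 7.36-fold lower, and no KO library reached any WT library. The size of the difference leans on KO replicate 2, which held 9 of the 13 KO counts, since the log2 ratio was −2.88 with all libraries and −4.00 without it. In bulk RNA, fewer cells with Hox transcripts and fewer transcripts per cell cannot be told apart. In the WT libraries 32.5% to 53.7% of the counts of the 38 Hox genes came from Hoxa, and in the KO libraries 2.78% to 18.8%. Of the 10 genes, 8 had a lower total over the 3 libraries in KO EpiLCs, Hoxa10 had 2 counts in each genotype, and Hoxa11 had a single count, in a KO library. The difference was not carried by Hoxa7 alone, since the other 9 genes had 15, 16 and 27 counts in WT and 1, 6 and 2 counts in KO libraries. The sums are given as a description, without a test.

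Hoxa7, the most abundant of these Hoxa genes, passed the filter on low counts and fell in KO EpiLCs. Hoxa7 (ENSMUSG00000038236.9, chromosome 6, 52191471 to 52198834), a gene of the middle of the cluster that acts in the trunk, had 12, 13 and 13 counts in WT and 0, 3 and 1 counts in KO libraries. The WT values are all above the KO values, and they differ among themselves by a single count. Its level fell from 0.985 ± 0.172 (SD, n = 3) to 0.102 ± 0.118 CPM. The log2 fold change fitted by edgeR was −3.13 (SE 0.70, edgeR adjusted p = 0.00353). This is 8.73-fold lower by the fit, which is not the plain ratio of the 2 mean levels. Among the 15746 genes tested, 4 had a log2 fold change as low as that of Hoxa7 or lower, Hoxa7 included. It passed the filter through the WT libraries alone, so that at its KO level in both genotypes it would not have been tested. The call, 1 among the 2 described Hox genes that were tested, stands beside the 12.5% of all genes called lower, and among all genes tested 17.1% had every KO library below every WT library. Leaving out single libraries moved the log2 fold change of Hoxa7 to between −4.35, without KO replicate 2, and −2.61.

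The Hoxa genes beside it had few counts, mostly in WT libraries. Hoxa4 had 2, 5 and 6 counts in WT libraries and none in KO libraries. With 3 counts as the limit over the KO group, the ratio of WT to KO is 4.27-fold. This takes the WT counts as exact and leaves out the spread of replicates, so it is not a lower bound on the change. Hoxa5, an early trunk gene active later in the lung and neck, had 7, 5 and 10 counts in WT libraries and 0, 3 and 1 in KO libraries. Hoxa2, which acts in the hindbrain and its neural crest, had 3, 2 and 1 counts in WT libraries and none in KO libraries. The same limit gives 1.97-fold, again with the WT counts taken as exact. Without the filter the log2 fold change of Hoxa2 was −4.10 (SE 2.03, edgeR adjusted p = 0.244). These 3 genes and the tested Hoxa7 make up the 4 of the 38 Hox genes in which every KO library was below every WT library. Among all genes with a count that failed the filter, 3.6% showed this order, and among those within 10 Mb of the Hoxa cluster 7.14%, against 3 of the 23 Hox genes that failed the filter with a count. Hoxa3, Hoxa6 and Hoxa9 had 4, 2 and 7 counts over the WT libraries and 1, 0 and 0 over the KO libraries, with overlapping groups. Hoxa10, Hoxa11 and Hoxa13, the genes of the late end, had at most 2 counts in any library. When the filter was dropped, Hoxa4 passed with an adjusted p of 0.0346 in edgeR. Hoxa5 and Hoxa9 did not, with 0.102 and 0.203 in edgeR, nor did Hoxa2. DESeq2 gave Hoxa4 no adjusted p. All counts of Hoxa4 lie in WT libraries, so that its call gives no independent support.

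**Figure D2:**
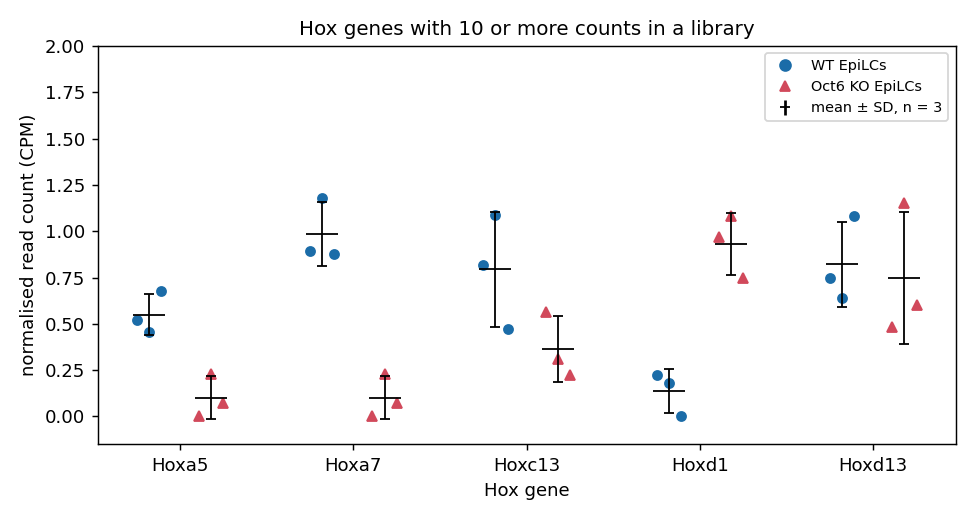
Normalised read counts (CPM) of the 5 Hox genes described with 10 or more counts in a library, by library, with the mean and SD of the 3 WT libraries (circles) and 3 KO libraries (triangles). Hoxa5 and Hoxa7 are lower in every KO library, Hoxd1 is higher in every KO library, and Hoxc13 and Hoxd13 overlap between genotypes.

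Hoxa lies in a part of chromosome 6 where most genes were lower in KO EpiLCs, and the log2 fold change of Hoxa7 lay below theirs. Within 10 Mb of the cluster, 100 genes other than Hox genes were tested, with a median log2 fold change of −0.52 and quartiles of −0.76 and −0.23, and 56 of them (56%) were called lower. In 59 of the 100 every KO library was below every WT library. The Hoxa7 value is 2.61 below the local median on the log2 scale, and below that of each of these 100 genes. The nearest of them is Scrn1 at −2.33, a gap about as large as the SE of 0.70 of Hoxa7, and Hoxa7 was tested through its WT libraries alone. When the KO libraries were offset by the local median, the log2 fold change of Hoxa7 was −2.63 (edgeR adjusted p = 0.0147). Around the other clusters the medians were −0.03 for Hoxb (298 genes), −0.11 for Hoxc (133 genes) and 0.14 for Hoxd (100 genes). Of these genes, 54 around Hoxb (18.1%), 32 around Hoxc (24.1%) and 3 around Hoxd (3%) were called lower, beside 12.5% of all genes tested. In the same order, 14 of 298, 10 of 133 and 13 of 100 genes were called higher. Around Hoxa 4 of the 100 genes were called higher, and over all genes tested 11.8%. The part of the chromosome 6 shift in the counts of the Hoxa genes that could not be tested singly was not tested.

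**Figure D3:**
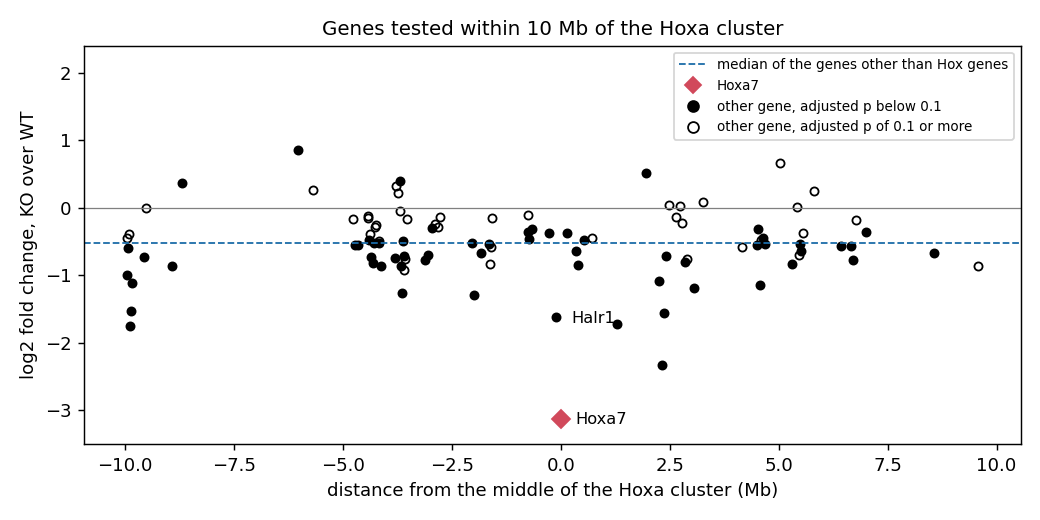
Log2 fold change, KO over WT, of Hoxa7 (diamond) and of the 100 genes other than Hox genes tested within 10 Mb of the Hoxa cluster, by distance from its middle, with filled circles for other genes with an adjusted p below 0.1 and a dashed line at the median of −0.52 of the genes other than Hox genes. Most genes lie below 0, and Hoxa7 lies below all others.

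A noncoding gene beside the cluster fell as well. Halr1, a long noncoding RNA on the strand opposite to the Hoxa genes (chromosome 6, 52056776 to 52115615), had 146, 103 and 188 counts in WT and 27, 50 and 62 counts in KO libraries, again without overlap. This order was shown by 59% of the genes other than Hox genes tested within 10 Mb, and by 17.1% of all genes tested. The log2 fold change of Halr1 was −1.62 (SE 0.24, edgeR adjusted p = 9.36e-05), with values from −1.86 to −1.37 when each library was left out. This is 1.10 below the local median on the log2 scale. Of the 101 genes tested within 10 Mb, Hoxa7 among them, 5 had a value as low or lower, Halr1 included. Inside the cluster, Hoxaas3, an RNA antisense to Hoxa7, had 5, 5 and 5 counts in WT and 0, 0 and 1 in KO libraries. Hotairm1, another antisense RNA of the cluster, had 5, 6 and 2 counts in WT and 4, 2 and 0 in KO libraries, with overlapping groups. Hoxaas3 exons cover 586 of the 2881 exon bases of Hoxa7, and the use of the strand in counting is not given in the sources used here, so that reads from these stretches cannot be assigned to 1 strand with certainty. The other neighbour tested within 100 kb, the processed pseudogene Gm8129, which can share reads with the gene it was copied from, had a log2 fold change of −0.36 (SE 0.12, edgeR adjusted p = 0.0426), a call lost without WT replicate 1, KO replicate 2 or KO replicate 3. Of the 8 protein-coding genes tested within 1 Mb of the cluster, 6 (Hibadh, Tax1bp1, Cbx3, Skap2, Hnrnpa2b1 and Snx10) were lower and none higher, with a median log2 fold change of −0.41 and values from −0.65 for Hibadh, an enzyme of valine breakdown, to −0.11 for Nfe2l3. Skap2, an adaptor protein gene that borders the cluster, had −0.38 (SE 0.10, edgeR adjusted p = 0.0123). Leaving out KO replicate 3 removed the calls of Hnrnpa2b1 and Snx10, and leaving out WT replicate 3 or KO replicate 1 that of Snx10. Evx1, the homeobox gene at the far end of the cluster, had 1 count in all.

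Hoxd1 was the one Hox gene with more counts in every KO library than in any WT library, and the other 4 genes with a higher total in KO EpiLCs (Hoxa11, Hoxb1, Hoxb7 and Hoxc6) had at most 2 counts in a library. It lies at the early end of the Hoxd cluster (ENSMUSG00000042448.6, chromosome 2, 74593324 to 74595486) and acts in the developing nervous system. It had 3, 2 and 0 counts in WT and 12, 14 and 10 counts in KO libraries, with no overlap between the genotypes, an order shown by 5.17% of all genes with a count that failed the filter. Its level was 0.135 ± 0.119 CPM (SD, n = 3) in WT and 0.933 ± 0.167 CPM in KO EpiLCs. Hoxd1 narrowly failed the filter on low counts, which asks for 0.757 CPM in 3 libraries before normalization for composition, since KO replicate 3 with its 10 counts was just short of it, and has therefore no adjusted p in the test across the 15746 genes. Without the filter its log2 fold change was 2.76 (SE 0.77, edgeR adjusted p = 0.00507), and DESeq2's Wald test gave 2.84 (SE 0.99, adjusted p = 0.0305). In the 4 fits that left out 1 library and in which it passed the filter, the log2 fold change was between 2.13 and 3.41 with an adjusted p below 0.1, while without KO replicate 1 or KO replicate 2 it was not tested. No WT library reached the CPM asked for, so that it was tested there through the KO libraries alone and these values give no independent support. Haglr, which starts beside Hoxd1 on the other strand, had 2, 0 and 3 counts in WT and 4, 5 and 15 counts in KO libraries, also without overlap. The flanking genes Lnpk and Mtx2 did not pass the test, with log2 fold changes of 0.17 (SE 0.12) and 0.13 (SE 0.11).

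The rest of the Hoxd cluster (74498654 to 74595486) did not follow Hoxd1. Hoxd13, the last gene of the cluster, which acts in digits and the hind end of the body, had 10, 7 and 16 counts in WT and 6, 15 and 8 counts in KO libraries. The groups overlap, and the log2 fold change of −0.15 (SE 0.49, edgeR adjusted p = 0.878) is smaller than its error. Hoxd8 had 6, 0 and 8 counts in WT and 0, 1 and 2 in KO libraries, and Hoxd9 and Hoxd11 had at most 3 counts in any library. The cluster as a whole had 24, 9 and 24 counts in WT and 20, 30 and 20 counts in KO libraries, or 1.41 ± 0.517 and 1.81 ± 0.437 CPM, which overlap. Without Hoxd1 the sums were 21, 7 and 24 in WT and 8, 16 and 10 in KO libraries, and these overlap too. Hoxd took 16.7% to 28.9% of the counts of the 38 Hox genes in WT libraries and 54.1% to 62.5% in KO libraries. The summed level of the 38 genes itself fell, from 5.72 ± 0.7 CPM in WT to 3.13 ± 0.496 CPM in KO EpiLCs. The larger share is therefore not by itself a rise of the Hoxd sum, which overlaps between genotypes.

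In Hoxb (chromosome 11, 96085106 to 96259082) and Hoxc (chromosome 15, 102829538 to 102945278) no gene passed the filter. The 10 Hoxb genes together had 14, 3 and 10 counts in WT and 6, 4 and 6 counts in KO libraries, which overlap. Most of them fell on Hoxb9, with 6, 3 and 7 counts in WT and 4, 2 and 2 in KO libraries, and on Hoxb13, with 6, 0 and 2 against 1, 0 and 2. Hoxb1, a hindbrain gene, had a single count, in KO replicate 1. Hoxb4 and Hoxb6 each had a single count, in WT replicate 1, and Hoxb7 had 0, 0 and 1 counts in WT and 0, 2 and 2 in KO libraries. The 9 Hoxc genes had 18, 13 and 16 counts in WT and 9, 5 and 8 counts in KO libraries, or 1.2 ± 0.131 and 0.571 ± 0.173 CPM, without overlap. Of these, Hoxc13, a gene of hair and nail, had 11, 12 and 7 counts in WT and 7, 4 and 3 in KO libraries, which meet at 7 counts and overlap in CPM. Its log2 fold change without the filter was −1.09 (SE 0.65, edgeR adjusted p = 0.391). Hoxc4 had 3, 1 and 7 counts against 0, 1 and 3, and Hoxc5 and Hoxc6 had at most 3 in any library. Of the 35 protein-coding genes tested within 1 Mb of Hoxb, 1 was called lower and 3 higher. Of the 35 tested around Hoxc, 4 were called lower and 2 higher. Among all genes tested, 12.5% were called lower and 11.8% higher.

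**Figure D4:**
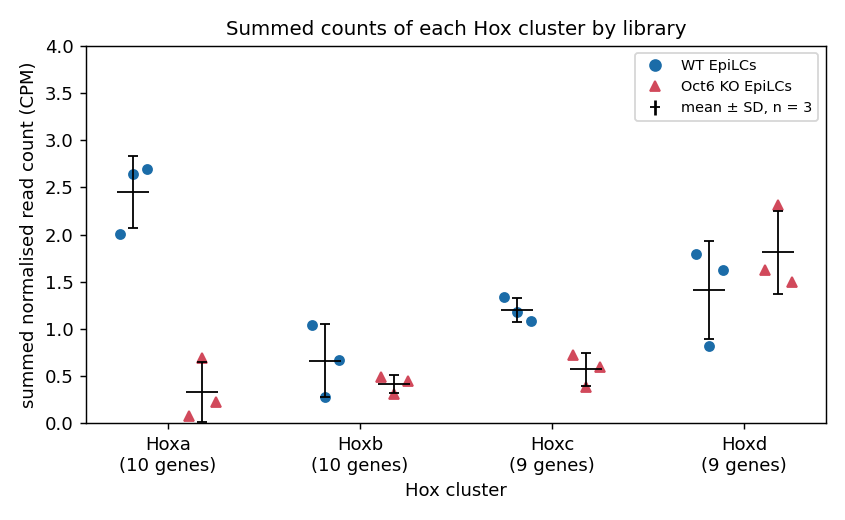
Summed normalised read count (CPM) of the genes described of each Hox cluster in the 3 WT libraries (circles) and 3 KO libraries (triangles), with the mean and SD. The 10 Hoxa genes described go from 2.45 to 0.333 CPM, Hoxc is lower in every KO library at a lower level, and the Hoxb and Hoxd sums overlap between genotypes.

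The order of the Hox genes described by level changed between the genotypes. Per kb of exon, Hoxa7 (0.342 ± 0.0598 CPM per kb, SD, n = 3), Hoxd13 (0.33 ± 0.093), Hoxc13 (0.323 ± 0.126) and Hoxa5 (0.293 ± 0.06 CPM per kb) were the highest of the 38 in WT EpiLCs, and these 4 differ by less than their spread. In KO EpiLCs Hoxd1 was the highest of the 38, at 0.501 ± 0.0896 CPM per kb, above 48% of protein-coding genes, followed by Hoxd13 at 0.301 ± 0.144 and Hoxc13 at 0.149 ± 0.0722 CPM per kb. In WT EpiLCs Hoxd1 was at 0.0726 ± 0.0638 CPM per kb, above 33.7% of protein-coding genes, and Hoxa7 in KO EpiLCs was at 0.0354 ± 0.0409 CPM per kb. By paralog group, the summed CPM of groups 2, 4, 5, 7 and 13 was lower in every KO library. Groups 4, 5 and 7 held 25, 26 and 39 counts over the WT libraries and 4, 4 and 8 over the KO libraries. These sums largely repeat the Hoxa counts, since Hoxa4, Hoxa5 and Hoxa7 held 13, 22 and 38 of the WT counts. Hoxa2 held all 6 counts of group 2. Hoxb7, the other gene described in group 7, had 1 count over the WT and 4 over the KO libraries. The share of such an order among other sums of genes was not determined. Group 13, the most posterior, had 27, 19 and 27 counts in WT and 14, 20 and 13 in KO libraries. All 4 of its genes had a lower total in KO EpiLCs, but Hoxd13 only by 29 against 33 and Hoxa13 by 1 against 2.

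Other genes of the pathway were examined as lists, each with the number of genes called at an adjusted p below 0.1, beside the 11.8% of all genes tested that were called higher and the 12.5% called lower. The TALE homeodomain cofactors, which bind DNA together with Hox proteins, were 9 genes, of which 8 were tested, 2 rose and 1 fell, with a median log2 fold change of −0.03 against 0.00 for all genes tested. Pknox2 rose from 0.731 ± 0.0871 to 1.81 ± 0.927 CPM (log2 fold change 1.28, SE 0.46) and Meis2 from 0.961 ± 0.442 to 1.97 ± 0.744 CPM (1.07, SE 0.43), while Pbx2 fell from 40.7 ± 5.17 to 31.7 ± 1.86 CPM (−0.36, SE 0.12). For these 3 genes edgeR gave adjusted p-values of 0.0571, 0.0924 and 0.0436. Pbx2 lost its call without WT replicate 2 or KO replicate 2, Meis2 without any of WT replicates 1 and 3 and KO replicates 2 and 3, and Pknox2 without any library other than KO replicate 3. With DESeq2 no cofactor was called higher and 2 were called lower, and the adjusted p was 0.131 for Pknox2 and 0.203 for Meis2. The cofactor that failed the filter, Meis3, named here after its values were seen, had 15, 10 and 10 counts in WT and 2, 4 and 2 in KO libraries, without overlap. None of the 6 Cdx and ParaHox genes passed the filter, and their summed level was 0.877 to 1.19 CPM in WT and 0.154 to 0.975 CPM in KO libraries. Cdx2, named here after its values were seen, had 7, 5 and 3 counts in WT and 2, 0 and 1 in KO libraries, without overlap. Cdx1 went the other way, with 3, 0 and 0 counts in WT and 1, 1 and 8 in KO libraries. In Cdx1 and the rest of this list the groups overlap. Among all genes with a count that failed the filter, 3.6% showed the order of Meis3 and Cdx2, every KO library below every WT library.

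Of 17 genes of the retinoid pathway, which supplies the signal that opens the early end of the clusters, 11 were tested, 1 rose and 4 fell, with a median log2 fold change of −0.08. With DESeq2, or at an adjusted p below 0.05 in edgeR, none was called higher and 2 were called lower. Aldh1a2, which makes retinoic acid, rose from 0.606 ± 0.478 to 1.51 ± 0.385 CPM (log2 fold change 1.33, SE 0.54). Crabp2, which carries retinoic acid to its receptors, fell from 18 ± 0.514 to 10.7 ± 2.11 CPM (−0.75, SE 0.17), and Dhrs3, which turns retinal back to retinol, from 4.39 ± 0.833 to 2.51 ± 0.853 CPM (−0.81, SE 0.30). The receptor gene Rarg fell from 91 ± 12.9 to 72.6 ± 4.14 CPM (−0.32, SE 0.11). In this order, edgeR gave adjusted p-values of 0.0964, 0.00291, 0.0614 and 0.0494. Crabp2 kept its call with each library left out. Dhrs3 lost it without WT replicate 1, WT replicate 3 or KO replicate 2, Rarg without any library other than WT replicate 3 or KO replicate 2, and Aldh1a2 without any library other than WT replicate 2.

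All 31 Polycomb genes listed, which keep Hox chromatin silent, were tested, and 3 rose and 5 fell, with a median log2 fold change of 0.02, shares near the 11.8% and 12.5% of all genes. The histone methyltransferases Ezh2 and Ezh1 fell, with log2 fold changes of −0.55 (SE 0.10, edgeR adjusted p = 5.46e-04) and −0.48 (SE 0.12, edgeR adjusted p = 0.00933). The PRC1 subunit Rybp fell by 0.44 on the log2 scale, and Phc3 rose by 0.41 (adjusted p = 0.00303 and 0.0653 from the edgeR test). Ezh2, Rybp and Aebp2, 3 of the 5 that fell, lie on chromosome 6, whose genes had a median log2 fold change of −0.40. Phc3 was called without WT replicate 3 or KO replicate 2 and lost its call without any other library, and the calls of Ezh1, Ezh2, Rybp and Aebp2 were kept with each library left out. Of 14 trithorax and related genes, which keep Hox genes active, all were tested, 2 rose and 1 fell, with a median of −0.001, also near the shares over all genes. Mllt3 had a log2 fold change of 0.52 and Ash1l of 0.29, while Kdm6b, which removes the Polycomb mark, had −0.60, and edgeR gave adjusted p-values of 0.043, 0.0951 and 0.0906. None of these 3 calls was kept with every library left out, since Mllt3 lost it without WT replicate 1, WT replicate 2 or KO replicate 3, Kdm6b without any library other than WT replicate 3, and Ash1l whichever library was left out.

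Few genes of the hindbrain and of the posterior axis, where Hox genes are first used, could be tested. Of 4 hindbrain genes 2 were tested and 1 was called, Gbx2, which rose from 3.82 ± 1.15 to 8.19 ± 0.311 CPM (log2 fold change 1.09, SE 0.23, adjusted p = 0.00197 from the edgeR test). Of 7 posterior axis genes 4 were tested and 1 was called, Wnt8a, which rose from 4.01 ± 2.79 to 14.4 ± 1.26 CPM (log2 fold change 1.83, SE 0.29, adjusted p = 1.82e-04 from the edgeR test). The median log2 fold changes of these lists were 0.32 and 0.55. Gbx2 and Wnt8a kept their calls with each library left out, the Wnt8a value without WT replicate 1 being the highest, at 2.56.

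Markers of other cell types and of the naïve state were also present, and several moved with genotype. Few genes of each list were tested, and the calls stand beside the 11.8% of all genes tested called higher and the 12.5% called lower. The 4 neural markers had a summed level of 40.9 to 45.3 CPM in WT and 15.4 to 16.7 CPM in KO libraries, and both of the genes tested, Sox1 and Nes, fell. The 5 naïve markers were summed at 178 to 186 CPM in WT and 267 to 336 CPM in KO libraries, with 3 of the 5 called higher. The 5 mesoderm markers came to 6.01 to 6.55 and 9.01 to 12.1 CPM, with Eomes, the one gene tested, called higher. The 5 endoderm markers came to 2.29 to 3.82 and 3.23 to 9.68 CPM, with 2 tested and Gata6 called higher, a call lost without KO replicate 3. The 7 fibroblast markers came to 11.9 to 22.3 and 9.16 to 17 CPM, with 4 tested, Thy1 called lower and Pdgfra higher, a call kept without WT replicate 1 or KO replicate 2 and lost without any other library. No marker of these lists was at 0 in all libraries. With the replicate number as a block, 2 EpiLC markers were called lower instead of 0 and 3 higher instead of 2. The block also gave 3 fibroblast markers called lower instead of 1. The part of these markers in the Hox counts was not tested.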

How the data were processed

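RNA-seq was performed on 3 WT and 3 Oct6 KO EpiLC samples at 48 h. Before deposit, reads went through FastQC and Fastp, and STAR in 2-pass mode aligned them to GRCm39 and counted them by gene. The deposited values are these raw counts, neither normalized nor filtered. Tool versions, the annotation release, the strand setting and the treatment of multiple matches are not given in the sources used here. Identifiers were matched to GENCODE M39 (54749 of 55416). Of 2 or more identifiers with 1 symbol, the one with most counts kept it.

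The counts of all 6 samples entered 1 quasi-likelihood fit of genotype (edgeR 4.0.16 under R 4.3.3, TMM factors, Benjamini-Hochberg adjustment) after filterByExpr with a minimum count of 10, which kept 15746 genes. The threshold was an adjusted p below 0.1. CPM refer to the TMM-scaled library total, and CPM per kb to the union of annotated exons. Standard errors come from the F statistic. The fit was tested on simulated data. DESeq2 1.42.0, RLE factors, library totals, other filters, an adjusted p below 0.05, a replicate block, an offset for the shift of chromosome 6 and each library left out were the alternatives.

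The design text calls the replicates paired, and the numbers pair the samples: over 11448 genes, the deviations from the group means had correlations of 0.278, 0.354 and 0.124 for libraries with the same number and from −0.265 to −0.0224 otherwise. The main fit left this pairing out. With the replicate number as a block, 4764 of the 15746 genes were called instead of 3833. The shares over all genes and the calls given above are those of the fit without the block, except where the block is named. Replicates were not copies, with a chi-square per degree of freedom of 6.87 to 11.7. The Hox genes and lists were chosen with earlier results of these data known. The text gives 38 of the 39 Hox genes, and of each list at most 4 called genes with the largest log2 fold changes, with exceptions marked. Besides 1 Hox gene, 2 genes of the lists are not reported here, and sums and counts leave all 3 out.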

Additional observations from a re-analysis of the deposited data

How the results depend on the processing

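Hoxa7 was called lower in every fit in which it was tested. These fits reuse the same few counts, and where the filter on low counts was applied Hoxa7 passed it through the WT libraries alone. They therefore give no independent support. The number of Hox genes called lower was 1 in the edgeR test and 2 without a filter, where Hoxa4 was also tested. A replicate block gave Hoxa7 a log2 fold change of −3.18, and the block changed no call among the Hox genes described. None of the 38 Hox genes had 10 counts in every library, so that filter left none to test. The number of Hox genes called higher was 0 in the edgeR test and 1, Hoxd1, without a filter or with DESeq2, because Hoxd1 was tested there, and 0 to 1 with each library left out. The log2 fold change of Hoxd13 ranged from −0.60 to 0.11 with each library left out, and its sign turned without WT replicate 3 (0.11) and without KO replicate 1 (0.07). Instead of 25 genes with a count in some library, 15 had at least 3 and 5 at least 10. The summed counts of each cluster kept their direction with RLE factors, library totals, the replicate block and each library left out, the alternatives run for them, with log2 ratios of −4.00 to −2.42 for Hoxa, −1.05 to −0.19 for Hoxb, −1.29 to −0.86 for Hoxc and 0.09 to 0.57 for Hoxd. Among the lists, the genes called higher and lower ranged over the alternatives from 0 to 3 and 0 to 2 for the cofactors (2 and 1 in the edgeR test), 0 to 1 and 1 to 5 for the retinoid pathway (1 and 4), 0 to 5 and 4 to 5 for Polycomb (3 and 5), and 0 to 2 and 0 to 1 for trithorax (2 and 1). The replicate block gave 3 and 1, 1 and 5, 4 and 5, and 2 and 1 for these lists, and the hindbrain and posterior axis counts were the same under every alternative run. The cause of these differences was not tested. The Hox genes that failed the filter had no test in the edgeR fit, and their counts limit what can be said of them.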
